A study of Mus musculus with 14 samples.

Results

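Ribosome biogenesis factors are the proteins that transcribe, modify, cut and fold ribosomal RNA (rRNA) and assemble it with ribosomal proteins, and 36 of their genes were listed for this account of mouse epidermis. A listed gene was taken as measured where a probe set carried its symbol alone, and the probe set with the highest mean over all 14 arrays stood for it. By that rule 33 of the 36 genes were measured, among 17097 genes in all, and Gnl3, Mybbp1a and Utp14a were not analysed here beyond their promoters. The members were listed by function, with earlier results of these data in view, and the rule does not say which measured values chose them. Nop53 and Rrp1b are treated here as selected on their low signals in knockout cells, so their knockout values below are a description and carry no test. Other members may also have been chosen with their values in view, so that no count over the members is independent evidence.

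The study compared epidermal cells of wild-type (WT) mice with cells of mice with a conditional knockout (cKO) of Ehmt2, whose product G9a is a histone methyltransferase. All mice were 15 weeks old and their skin was in homeostasis. Cells came from the bulge, the niche of follicle stem cells, or from the interfollicular epidermis (IFE), the sheet between follicles. The groups were bulge WT (n = 3), bulge cKO (n = 4), IFE WT (n = 3) and IFE cKO (n = 4). The deleted part of the gene, the Cre driver, the way in which bulge and IFE cells were separated, and whether replicates were separate animals are among the points that the labels do not state. The p-values therefore measure only the spread between these samples, which may be technical. Values are log2 signals, so a difference of 1 is a doubling, and a gene is said to be called where limma's p, adjusted over all 17097 genes, was under 0.05.

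Ribosome production starts in the nucleolus, where RNA polymerase I makes a long precursor rRNA. Box C/D particles methylate it and box H/ACA particles convert some of its uridines to pseudouridine, while separate sets of factors release, trim and export the small and the large subunit. Output of this pathway follows growth, and Myc is a well-known activator of many of its genes. In skin, IFE basal cells divide throughout life, whereas bulge stem cells rest for long periods.

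The arrays had medians between 5.76 and 5.84. On the Ehmt2 probe set that separated the genotypes, WT arrays read 9.51 to 9.78 and cKO arrays 5.85 to 6.09, while the other Ehmt2 probe set read 7.84 to 8.05 on every array. All 10 bulge marker genes were called higher in bulge in both genotypes, and 6 of 10 differentiation markers lower in WT bulge. The first principal component, with 72.5% of the variance, separated the compartments, but 2 bulge cKO arrays, replicates 2 and 3, scored -6.90 and -11.30, nearer to IFE than replicates 1 and 4 of that group (-36.74 and -37.17). Within IFE cKO, replicates 2 and 3 also stood apart, at 23.26 and 22.98, below replicates 1 and 4 (40.09 and 37.42) and below the IFE WT arrays (29.81 to 39.33). Counts and medians of the cKO comparisons are given below without these pairs of arrays as well, and values of single genes only where that ends a call.

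Wild-type bulge cells had less RNA of most biogenesis factors than wild-type IFE cells. Of the 33 members, 25 were called lower in bulge and 0 higher, where 16.6% of all genes were called lower and 18.4% higher. The median difference over the members was -0.57, against -0.01 over all genes, and 32 of 33 members lay below 0, against 52.8% of all genes. The ranges of the arrays did not overlap for 25 members, all lower in bulge, against 23.7% of all genes. At least 2-fold differences were found for 4 members, Nhp2, Utp18, Bysl and Rrs1, and for 7.9% of all genes. The same comparison in cKO cells gave 23 members called lower and 0 higher, where 14.6% of all genes were called lower and 17.6% higher. The median was -0.41 in cKO, against 0.03 over all genes, and 31 of 33 members lay below 0, against 42.4%. Ranges were apart for 23 members there, against 15.0% of all genes. Without bulge cKO replicates 2 and 3 the members called lower in cKO were 20, with a median of -0.40. Without IFE cKO replicates 2 and 3 they were 21, with a median of -0.48, and without all 4 of these arrays 18, with a median of -0.50.

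The same 23 members, each by its chosen probe set, were called lower in bulge in both genotypes. On the chosen probe sets Polr1a and Nolc1 passed the threshold in WT and not in cKO, though other probe sets of both genes passed it in cKO, and 8 members passed it in neither, namely Ebna1bp2, Nop10, Nop53, Npm1, Pes1, Rrp1, Rrp8 and Utp3. The comparisons in WT and in cKO use different arrays. In bulk RNA, fewer cells of a type and less RNA per cell cannot be told apart.

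**Figure D1:**
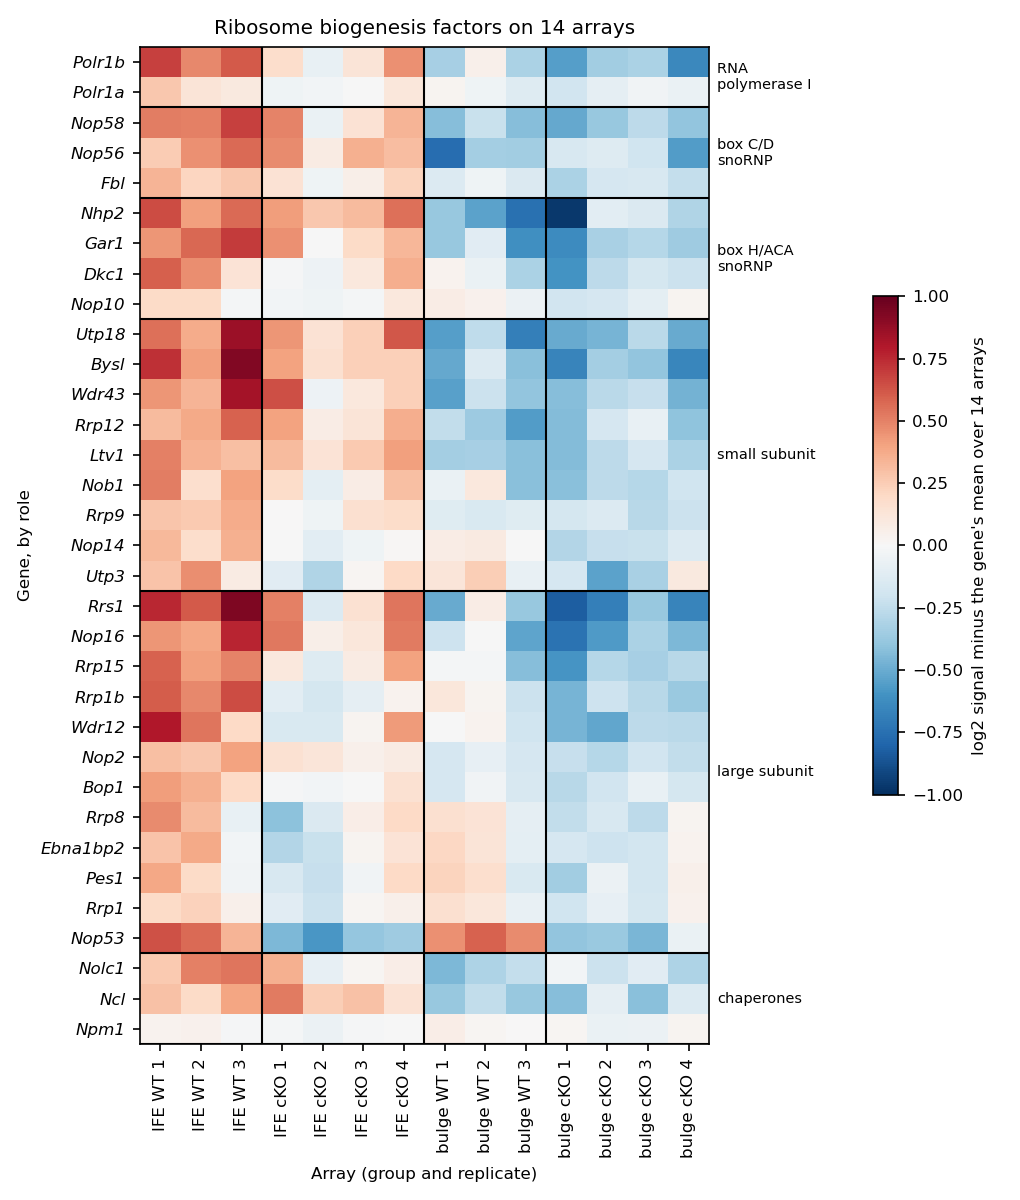
Log2 signal of each of the 33 members minus that gene's mean over 14 arrays (colour), with genes in rows by role and arrays in columns by group. Most members are above their mean on the IFE WT arrays and below it on the bulge arrays, while Nop53 is high on every WT array and low on every cKO array.

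RNA polymerase I was represented by its largest subunit, Polr1a, and by the other core subunit, Polr1b. Polr1b was lower in bulge by -0.79 in WT (SE 0.14, limma adjusted p = 0.000838) and by -0.64 in cKO (SE 0.12, limma adjusted p = 0.00216). Its signal was 5.71 to 6.10 on the bulge WT arrays and 5.40 to 5.73 on the bulge cKO arrays, close to the array medians. Polr1a differed by -0.21 in WT (limma adjusted p = 0.021) and by -0.10 in cKO (limma adjusted p = 0.179). Of its other probe sets, 1 differed by -0.25 in cKO (limma p adjusted over probe sets 0.028) and -0.21 in WT (0.09), and the other was called in neither.

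All 3 box C/D proteins were called lower in bulge in both genotypes. Nop58, which with Nop56 forms the core of the particle, read 9.38, 9.59 and 9.38 on the bulge WT arrays and 10.32, 10.31 and 10.50 on the IFE WT arrays. Every bulge array was below every IFE array, and the difference was -0.93 (SE 0.12, 1.90-fold, limma adjusted p = 0.000131). In cKO, Nop58 read 9.30, 9.43, 9.55 and 9.41 in bulge and 10.31, 9.75, 9.96 and 10.15 in IFE, a difference of -0.62 (SE 0.11, limma adjusted p = 0.00128). Nop56 differed by -0.91 in WT and -0.57 in cKO. Fbl, the methyltransferase of the particle, differed by -0.39 and -0.32.

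Among the box H/ACA proteins, Nhp2, Gar1 and Dkc1 were called lower in bulge in both genotypes and Nop10 in neither. Nhp2, which binds the guide RNA, read 8.95, 8.78 and 8.58 in bulge WT and 9.97, 9.73 and 9.89 in IFE WT. These ranges were apart, with the widest difference of any member in WT, -1.09 (SE 0.19, 2.14-fold, limma adjusted p = 0.00072). In cKO the difference of Nhp2 was -0.77 (SE 0.16, limma adjusted p = 0.00388), with 8.36, 9.21, 9.18 and 9.02 in bulge and 9.74, 9.59, 9.64 and 9.87 in IFE. Bulge cKO replicate 1 was the lowest of all arrays.

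Gar1, a further subunit of the same particle, read 7.61, 7.88 and 7.37 in bulge WT and 8.43, 8.57 and 8.69 in IFE WT, a difference of -0.94 (SE 0.14, limma adjusted p = 0.000343). Its cKO values were 7.36, 7.67, 7.70 and 7.64 in bulge and 8.45, 7.98, 8.18 and 8.32 in IFE, with a difference of -0.64 (SE 0.12, limma adjusted p = 0.00239). No bulge array reached an IFE array of the same genotype. Dkc1, the pseudouridine synthase, differed by -0.52 in WT and -0.41 in cKO, and Nop10 by -0.10 (95% interval -0.26 to 0.06) and -0.11 (95% interval -0.25 to 0.03).

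Of the 9 small-subunit factors, 8 were called lower in bulge in each genotype. Utp18, part of the processome that handles the early precursor, read 7.37, 7.66 and 7.23 in bulge WT and 8.46, 8.29 and 8.77 in IFE WT. The groups were apart, by -1.09 (SE 0.15, 2.13-fold, limma adjusted p = 0.00017). In cKO it read 7.41, 7.45, 7.65 and 7.41 in bulge and 8.36, 8.06, 8.15 and 8.54 in IFE, a difference of -0.80 (SE 0.13, limma adjusted p = 0.000973). Bysl, which stays with the later small-subunit precursor, read 6.39, 6.77 and 6.49 in bulge WT and 7.64, 7.31 and 7.83 in IFE WT. That difference was -1.04 (SE 0.14, 2.06-fold, limma adjusted p = 0.000129). In cKO, Bysl read 6.24, 6.56, 6.51 and 6.25 in bulge and 7.31, 7.07, 7.15 and 7.14 in IFE, and the difference was -0.78 (SE 0.12, limma adjusted p = 0.000715). Bulge lay below IFE on every array of either genotype for both genes.

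The other called small-subunit factors differed between -0.92 (Wdr43) and -0.23 (Nop14) in WT and between -0.58 (Wdr43) and -0.19 (Nop14) in cKO. They include Ltv1, which helps late small-subunit precursors mature, at -0.75 in WT (SE 0.08) and -0.57 in cKO (SE 0.07). Nob1, the nuclease that makes the final cut in the small-subunit rRNA, differed by -0.49 and -0.41. Rrp12 and Rrp9 differed by -0.81 and -0.44 in WT. Utp3 had differences of -0.18 in both genotypes, with intervals from -0.54 to 0.17 in WT and from -0.49 to 0.13 in cKO.

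The 12 large-subunit factors were divided: 7 were called lower in bulge in each genotype and 5 in neither. Rrs1, which takes part in bringing the small ribosomal RNA of the large subunit into it, read 8.53, 9.11 and 8.66 in bulge WT and 9.78, 9.64 and 9.97 in IFE WT, a difference of -1.03 (SE 0.19, 2.05-fold, limma adjusted p = 0.00119). In cKO it read 8.21, 8.34, 8.65 and 8.37 in bulge and 9.53, 8.89, 9.18 and 9.57 in IFE, the widest member difference in cKO at -0.90 (SE 0.17, limma adjusted p = 0.00184). Nop16, a nucleolar factor of the same branch, read 7.0, 7.17, 7.42 and 7.28 in bulge cKO and 8.26, 7.79, 7.84 and 8.25 in IFE cKO. Its differences were -0.82 in cKO (SE 0.15, limma adjusted p = 0.00164) and -0.77 in WT (SE 0.17, limma adjusted p = 0.00362), with 7.53, 7.73 and 7.20 in bulge WT and 8.17, 8.12 and 8.49 in IFE WT. Neither gene had a bulge array that reached IFE of its genotype.

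Bop1, Pes1 and Wdr12 form a single complex of the large-subunit pathway, and differences among them were not tested. Bop1 differed by -0.45 in WT (limma adjusted p = 0.000568) and Wdr12 by -0.57 (limma adjusted p = 0.0185), while Pes1 differed by -0.10 (95% interval -0.42 to 0.22). The probe sets of Pes1 and those of Wdr12 disagreed in sign between compartments, so neither gene is settled by its chosen probe set. Their second probe sets were dim, with means of 5.39 (Pes1) and 5.19 (Wdr12), under the array medians. The chosen probe sets averaged 8.23 and 7.11. Nop2, an rRNA methyltransferase, had a small difference with a small error, -0.46 in WT (SE 0.05, limma adjusted p = 2.91e-05) and -0.34 in cKO (SE 0.04, limma adjusted p = 0.000225). Rrp15 differed by -0.66 and -0.49, and Rrp1b by -0.60 and -0.25. On the second Rrp1b probe set bulge and IFE averaged 7.59 and 7.97 in WT but 7.53 and 7.56 in cKO. The cKO difference of Rrp1b therefore rests on the chosen probe set. Ebna1bp2, Rrp1 and Rrp8 lay between -0.17 and -0.09 in WT and were not called. Nop53 differed by -0.01 in WT (95% interval -0.23 to 0.22).

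Among the nucleolar chaperones, Nolc1 and Ncl were called lower in WT bulge, at -0.77 (SE 0.11, limma adjusted p = 0.000274) and -0.63 (SE 0.11, limma adjusted p = 0.000852). In cKO, Ncl differed by -0.57 (limma adjusted p = 0.00113) and Nolc1 by -0.26 (limma adjusted p = 0.0645). The change of the Nolc1 difference between genotypes was 0.51 (SE 0.15), which did not pass the threshold (limma adjusted p = 0.212). The other Nolc1 probe sets were lower in cKO bulge by -1.08 (limma p adjusted over probe sets 0.000599) and -0.66 (0.0122), so that the absent call in cKO belongs to the chosen probe set alone. Npm1, an abundant histone and ribosomal protein chaperone, differed by 0.01 in both genotypes, with an interval of -0.08 to 0.10 in WT. The Npm1 probe sets disagreed in sign.

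**Figure D2:**
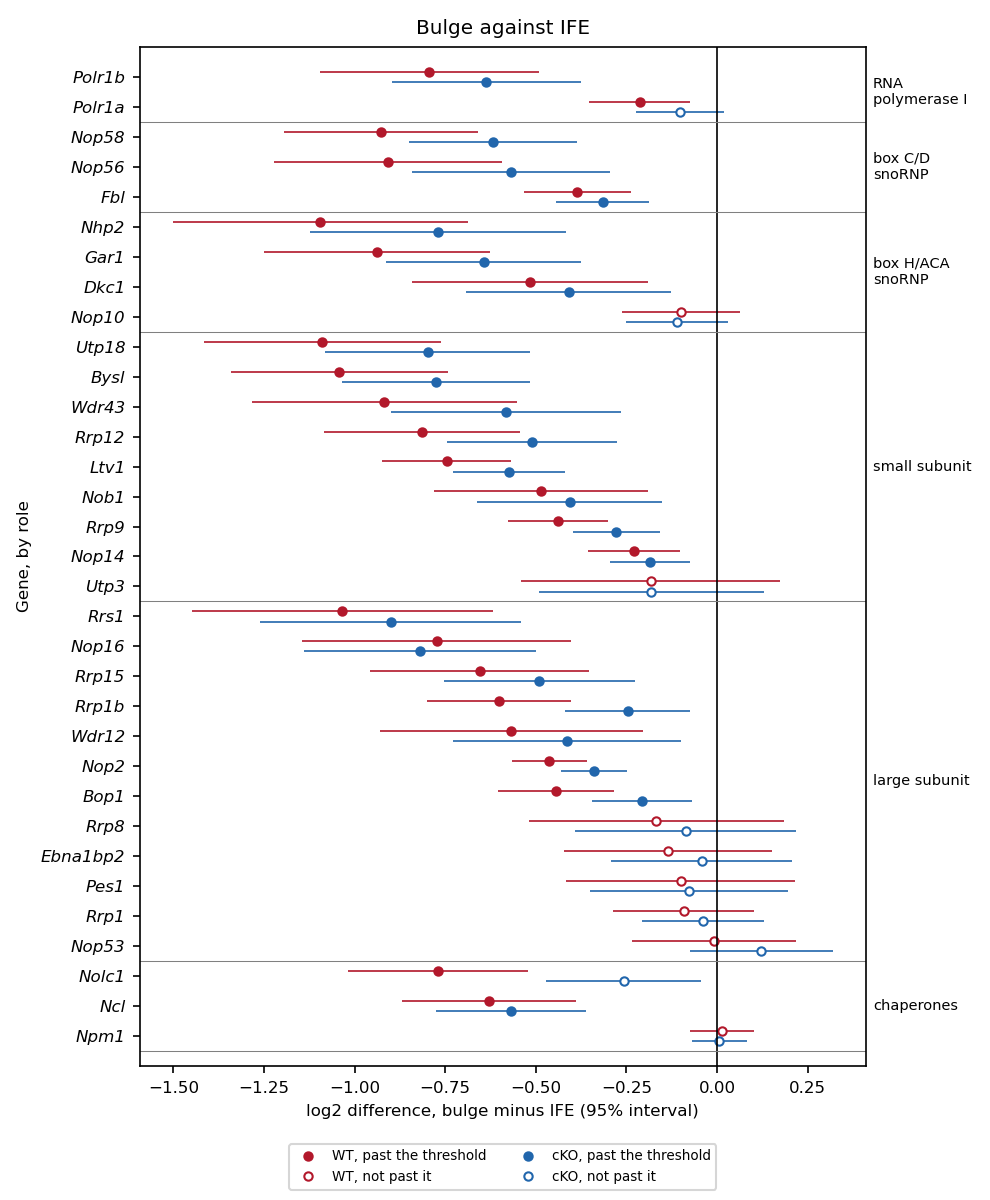
Log2 difference, bulge minus IFE, for each member in WT (red) and cKO (blue) with its 95% interval; filled points passed the threshold. The points of 32 members in WT lie left of 0, down to -1.09 for Nhp2, and Npm1 lies at 0.01.

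Promoters are shown because these members move together between compartments. RefSeq promoter windows on GRCm38.p6, from 250 bases before to 50 after the start of the gene, were matched for 30 of the 36 listed genes, and Bop1, Rrs1, Rrp12, Nop53, Fbl and Npm1 were not among them. Both strands were searched for CACGTG, the E-box that Myc and its relatives bind and which reads the same on both, for CCGGAAGT (ACTTCCGG on the other strand), an ETS factor motif, and for GCATGCGC, a motif of Nrf1. No letters of these matches overlapped in the members' windows. The 150 bases before the start are printed for 5 members, in the direction of the gene, with the motif in capitals: the E-box of Utp18 (chr11:93885767-93885916, minus strand) at -20 and of Nop2 (chr6:125131733-125131882, plus strand) at -60 from the start, and the ETS motif of Gar1 (chr3:129831397-129831546, minus strand) at -44, Nhp2 (chr11:51619623-51619772, plus strand) at -23 and Ltv1 (chr10:13193138-13193287, minus strand) at -98 and -56.
Utp18: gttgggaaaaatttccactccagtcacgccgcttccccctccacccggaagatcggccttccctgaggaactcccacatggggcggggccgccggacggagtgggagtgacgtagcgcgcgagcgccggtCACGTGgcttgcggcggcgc
Nop2: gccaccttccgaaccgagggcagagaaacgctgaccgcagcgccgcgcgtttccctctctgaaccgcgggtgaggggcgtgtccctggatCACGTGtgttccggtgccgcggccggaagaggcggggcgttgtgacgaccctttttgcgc
Gar1: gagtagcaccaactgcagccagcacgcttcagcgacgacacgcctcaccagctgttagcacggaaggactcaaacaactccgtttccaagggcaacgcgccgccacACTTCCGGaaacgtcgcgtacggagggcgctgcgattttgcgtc
Nhp2: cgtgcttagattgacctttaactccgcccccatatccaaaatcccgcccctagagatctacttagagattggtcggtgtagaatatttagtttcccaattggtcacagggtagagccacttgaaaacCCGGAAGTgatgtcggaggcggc
Ltv1: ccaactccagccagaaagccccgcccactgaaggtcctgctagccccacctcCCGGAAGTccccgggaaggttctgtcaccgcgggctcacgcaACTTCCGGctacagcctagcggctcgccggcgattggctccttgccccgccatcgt

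The E-box was found in 6 of 30 members (20%), namely Ltv1, Mybbp1a, Nop2, Pes1, Utp18 and Wdr43, and in 10.21% of the 13605 tested genes with a window. These 30 include Gnl3, Mybbp1a and Utp14a, which were not measured, whereas every tested gene was, so the sets compared are not alike. Ltv1 and Mybbp1a hold it downstream of the start, at 29 and 41, and Pes1 and Wdr43 at 3 and 18. The ETS motif was also found in 6 of 30 members, Ebna1bp2, Gar1, Ltv1, Nhp2, Rrp15 and Utp3, against 6.67% of tested genes. GCATGCGC occurred in 1 member, Nob1, against 4.62%. The matches cross the groups of called and uncalled genes: Pes1, Ebna1bp2 and Utp3 hold a motif and were not called between compartments. A match describes the letters of the window only.

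Further genes of the pathway were compared between compartments in the same fit. Of all genes, 16.6% were called lower and 18.4% higher in WT bulge, and 14.6% lower and 17.6% higher in cKO bulge. In a list of 101 measured biogenesis genes that are not among the members, 50 were called lower and 3 higher in WT bulge (median -0.29). In cKO bulge 44 genes of this list were called lower and 2 higher (median -0.22). By smallest p these were, in WT, Urb2 (-0.54), Taf1d (-1.01), Nol9 (-0.71), Polr1d (-0.81) and Pno1 (-0.93), and in cKO Taf1d (-0.77), Ftsj3 (-0.53), Rrn3 (-0.79), Ddx21 (-0.82) and Rsl1d1 (-0.41). Rrn3 and Taf1d serve the start of RNA polymerase I transcription, and Polr1d is a subunit shared by polymerases I and III. The ribosomal proteins, the finished building blocks, gave 2 of 28 called lower in each genotype, Rplp1 (-0.25 in WT, -0.15 in cKO) and Rplp0 (-0.14 in WT, -0.12 in cKO). Their median was 0.04 in WT.

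Of 9 measured genes of the Myc network, Mycl (-0.95), Myc (-0.64), Mlx (-0.36) and Mxd3 (-0.36) were called lower in WT bulge, and Mxi1 (0.75) and Mxd4 (0.57) were called higher. Mxi1, Mxd4 and Mxd3 encode repressors of the same family, which compete with Myc for its partner, so that members of this family differed in both directions. In cKO, Mycl (-0.79), Mlx (-0.38) and Myc (-0.37) were called lower and Mxi1 (0.44) higher. Cell division genes differed alongside the members: 17 of 19 proliferation genes were called lower in WT bulge (median -0.74), against 16.6% of all genes. In cKO bulge 9 of them were called lower (median -0.58), against 14.6% of all genes. The mean of that list was 7.27 to 7.57 on bulge WT arrays, 7.20 to 7.53 on bulge cKO arrays, 7.70 to 8.49 on IFE WT arrays and 7.74 to 8.40 on IFE cKO arrays. The part of proliferation in the members' difference was not tested.

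The mean over the 33 members summarises the order of the groups. Bulge WT averaged 8.29 ± 0.11 (SD, n = 3). Bulge cKO averaged 8.16 ± 0.07 (SD, n = 4). The IFE means were 8.85 ± 0.04 (SD, n = 3) for WT; for cKO the mean was 8.55 ± 0.12 (SD, n = 4). The array ranges were 8.81 to 8.88 in IFE WT, 8.40 to 8.69 in IFE cKO, 8.18 to 8.40 in bulge WT and 8.06 to 8.22 in bulge cKO. The IFE groups did not overlap, bulge WT replicate 3 fell within the bulge cKO range, and bulge WT replicate 2 was a little above IFE cKO replicate 2. Without Nop53 and Rrp1b the ranges were 8.77 to 8.85, 8.39 to 8.69, 8.13 to 8.35 and 8.03 to 8.20 in the same order.

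**Figure D3:**
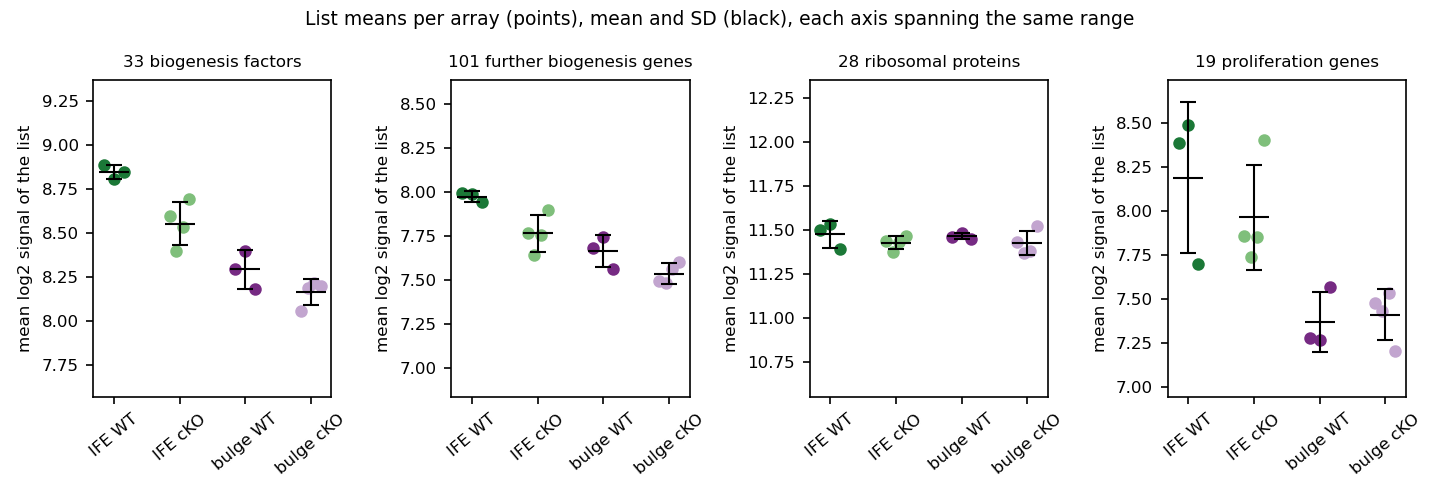
Mean log2 signal per array (points) of 4 gene lists by group, with the group mean and SD (black) and with each vertical axis spanning the same range. The biogenesis factors run from 8.81 to 8.88 on IFE WT arrays and from 8.06 to 8.22 on bulge cKO arrays, while the ribosomal proteins stay between 11.37 and 11.54 on all arrays.

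In IFE, cKO values lay a little below WT values for most members, few of which passed the test one by one. Leaving out Nop53 and Rrp1b, 1 of 31 members was called lower, Nop14, and 0 higher, where 0.175% of all genes were called lower and 0.322% higher. Differences were below 0 for 30 of these 31, with Ncl at 0.01 as the exception, against 54.8% of all genes. Their median was -0.25, against -0.01 over all genes. An unadjusted limma p under 0.05 with a lower signal was reached by 16 of the 31, against 6.04% of all genes, and arrays did not overlap in the lower direction for 10, against 5.97%. Without IFE cKO replicates 2 and 3, 0 of the 31 were called, 30 lay below 0 and the median was -0.17. Those replicates had the lowest means over the 33 members in their group, 8.40 and 8.53 against 8.60 and 8.69, and the highest means of bulge markers, 7.61 and 7.62 against 6.96 and 6.98, and of leukocyte markers, 6.78 on each against 6.20 and 6.30. The part of these cells in the members' values was not tested.

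By role, the IFE differences of the RNA polymerase I subunits were -0.42 (Polr1b) and -0.15 (Polr1a), and those of the box C/D proteins lay between -0.34 (Nop58) and -0.12 (Nop56). The box H/ACA proteins lay between -0.33 (Gar1) and -0.12 (Nop10), the small-subunit factors between -0.43 (Bysl) and -0.10 (Ltv1), and the large-subunit factors between -0.96 (Nop53) and -0.22. Nop2 lay at -0.22 (SE 0.04, limma adjusted p = 0.0523) and Bop1 at -0.30 (SE 0.07, limma adjusted p = 0.0979), both above the threshold. Rrs1 (-0.50), Wdr12 (-0.47), Rrp15 (-0.38) and Nolc1 (-0.34) had wider errors and limma adjusted p-values of 0.312, 0.267, 0.292 and 0.232.

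In bulge, fewer members lay below WT in the knockout. Leaving out Nop53 and Rrp1b, 1 of 31 was called lower, again Nop14, and 0 higher, where 1.85% of all genes were called lower and 1.98% higher. Differences were below 0 for 23 of the 31, against 46.2% of all genes, the median was -0.11, against 0.01, and arrays were apart in the lower direction for 4, against 8.05%. Under cyclic loess 18 of the 31 lay below 0, 0 were called and the median was -0.07. Without bulge cKO replicates 2 and 3, 28 lay below 0, 0 were called and the median was -0.12. The median over all 33, -0.13, was -0.08 without bulge WT replicate 2 and -0.17 without bulge WT replicate 3. Nop56 (0.22), Nhp2 (0.17), Nolc1 (0.17) and Rrp12 (0.12) had positive differences, none of which passed the threshold. The change of the knockout effect between compartments, bulge minus IFE, was called for 0 of 33 members by limma, where 0.105% of all genes were called. An unadjusted p under 0.05 was reached by 3 members in the positive direction, against 8.04% of all genes. The median was 0.13, against 0.02 over all genes, and 3 of 33 members lay below 0, against 43.8% of all genes. That median was 0.12 without bulge cKO replicates 2 and 3, and 0.08 without IFE cKO replicates 2 and 3. Without both pairs it was 0.04, with 10 of 33 below 0, and each of these fits called 0 members. On all arrays Nolc1 had the widest change, 0.51. The knockout comparisons use the same WT arrays as the comparisons of compartments, so these results are not independent of each other.

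**Figure D4:**
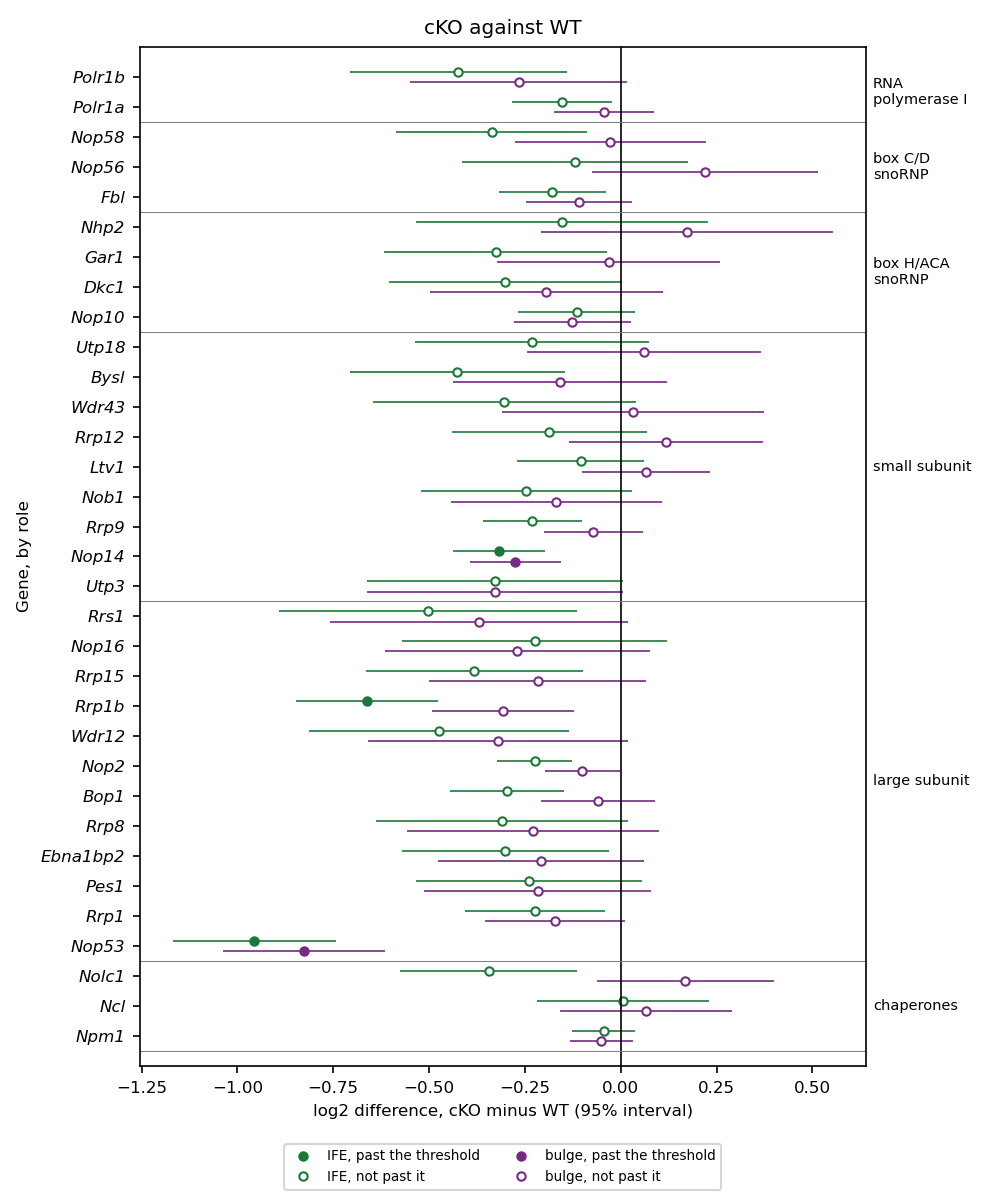
Log2 difference, cKO minus WT, for each member in IFE (green) and bulge (purple) with its 95% interval; filled points passed the threshold. Of the 33 IFE points 32 lie left of 0, and Nop53 stands apart from the other members at -0.96 in IFE and -0.83 in bulge. Nop53 and Rrp1b are treated as chosen on these values, so the filling of their points is not a test.

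Nop53, a large-subunit factor that brings the RNA exosome to its precursor, had the widest knockout difference of the list. It read 10.60, 10.53 and 10.30 in IFE WT and 9.52, 9.38, 9.58 and 9.61 in IFE cKO. In bulge it read 10.42, 10.55 and 10.44 in WT and 9.57, 9.59, 9.51 and 9.90 in cKO. All WT arrays lay above all cKO arrays, with differences of -0.96 (SE 0.10, 1.94-fold) in IFE and -0.83 (SE 0.10, 1.77-fold) in bulge. The other probe sets of Nop53 gave -0.95 and -0.53 in IFE and -0.76 and -0.26 in bulge. The chosen probe set is of a type that may match more than 1 transcript. With each array left out in turn the Nop53 difference stayed between -1.04 and -0.90 in IFE and between -0.91 and -0.78 in bulge.

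Rrp1b, a nucleolar large-subunit factor, read 8.32, 8.20 and 8.37 in IFE WT and 7.61, 7.54, 7.63 and 7.76 in IFE cKO, a difference of -0.66 (SE 0.09, 1.58-fold). In bulge it read 7.83, 7.75 and 7.51 in WT and 7.26, 7.51, 7.44 and 7.35 in cKO, a difference of -0.31 (SE 0.09). The IFE groups were apart, and in bulge WT replicate 3 touched the cKO range. The second Rrp1b probe set gave -0.41 in IFE and -0.06 in bulge. IFE cKO cells read 7.64 ± 0.09 (SD, n = 4) and bulge WT cells 7.70 ± 0.17 (SD, n = 3) for this gene, a pair that was not tested.

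Nop14 is a small-subunit processome factor. With Nop53 and Rrp1b left untested, it was the only member called in a knockout comparison. It read 9.19, 9.04 and 9.22 in IFE WT and 8.86, 8.76, 8.82 and 8.88 in IFE cKO. In bulge it read 8.94, 8.96 and 8.87 in WT and 8.57, 8.64, 8.64 and 8.73 in cKO. WT and cKO arrays were apart in each compartment, with differences of -0.32 in IFE (SE 0.05, limma adjusted p = 0.0232) and -0.27 in bulge (SE 0.05, limma adjusted p = 0.0213). Both calls are close to the threshold. The bulge call was lost without bulge cKO replicate 2 (limma adjusted p = 0.058) or 3 (0.0649), without both (0.174), and without bulge WT replicate 1 (0.0988) or 2 (0.0977). The IFE call was lost without IFE cKO replicate 2 (limma adjusted p = 0.0823) or 3 (0.0872), without both (0.315), and without IFE WT replicate 1 (0.13) or 3 (0.0848). Cyclic loess ended both calls (limma adjusted p = 0.0785 in IFE and 0.131 in bulge), as did fitting only the groups compared (0.127 and 0.101). The trended fit ended the IFE call (limma adjusted p = 0.0842).

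**Figure D5:**
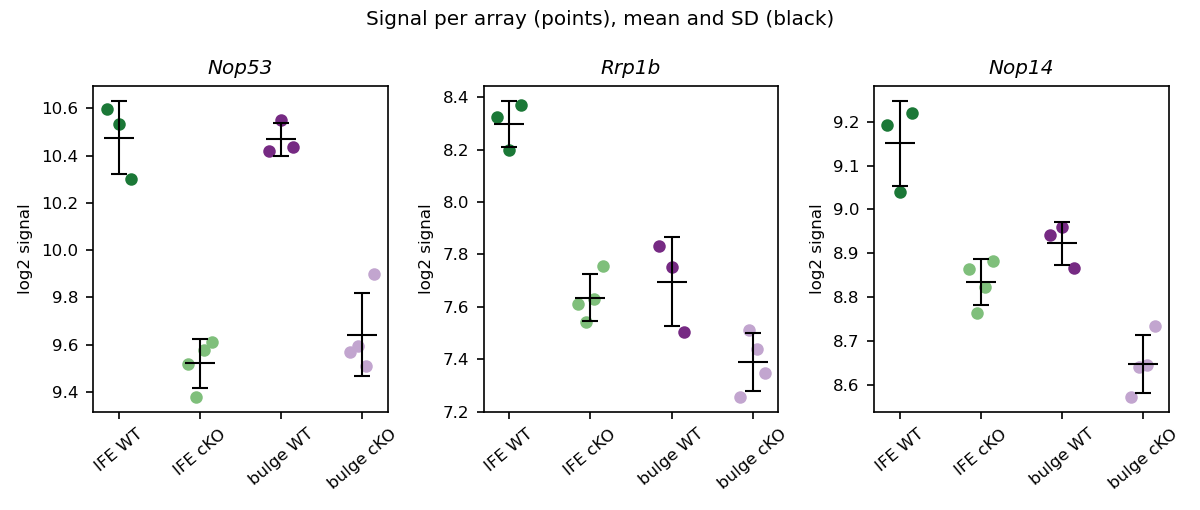
Log2 signal per array (points) of Nop53, Rrp1b and Nop14 by group, with the group mean and SD (black); each vertical axis has its own range. Nop53 separates the genotypes in both compartments, whereas Rrp1b is highest in IFE WT and lies between 7.26 and 7.83 on the bulge arrays.

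In the further biogenesis genes, 96 of 101 lay below 0 in IFE cKO (median -0.21), against 54.8% of all genes. Where 0.175% of all genes were called lower, 4 of this list were, Nol9 (-0.52), Sdad1 (-0.49), Urb2 (-0.30) and Ftsj3 (-0.39). These calls were 0 without IFE WT replicate 1 and 0 without IFE cKO replicates 2 and 3. They were 1 without IFE WT replicate 2 or either of those cKO replicates alone, and 28 with array weights. Such weights were largest on bulge cKO replicate 3 and IFE cKO replicate 3, which are among the arrays that stood apart. In bulge cKO, 86 of 101 lay below 0 (median -0.13), against 46.2% of all genes. Nol8 (-0.52) was called lower there and Snu13 (0.21) higher, where 1.85% of all genes were called lower and 1.98% higher. Neither direction had a call in the list without bulge cKO replicates 2 and 3. Calls among the 28 ribosomal proteins were 0 in either compartment, as were those among the 9 Myc network genes (Myc 0.12 in bulge and -0.14 in IFE), by limma. Unadjusted limma p-values under 0.05 were reached by 0 ribosomal proteins in bulge and 2 in IFE, and by 1 and 0 Myc network genes. Among all 17097 genes they were reached by 4390 in bulge and 1876 in IFE.

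Other cells and states moved with the genotypes. Of 11 leukocyte markers, 5 were called higher in bulge cKO and 0 in IFE cKO, where 1.98% and 0.322% of all genes were. In IFE cKO 1 of the 11 lay below 0, and 5 reached an unadjusted limma p under 0.05, against 1876 of 17097 genes. The mean signal of the list was 5.55 to 5.81 in bulge WT, 6.09 to 6.90 in bulge cKO, 5.78 to 6.26 in IFE WT and 6.20 to 6.78 in IFE cKO. Of the 11, 6 lay under the array median on every bulge WT array, 2 on every bulge cKO array, 5 on every IFE WT array and 3 on every IFE cKO array. Differentiation markers were called higher in bulge cKO for 3 of 10, against 1.98% of all genes, with list means of 7.17 to 7.66 in WT and 7.76 to 9.54 in cKO. Bulge markers lay below WT in bulge cKO for 10 of 10 genes, with a median of -0.55 and 0 called (5 at an unadjusted limma p under 0.05), and above WT in IFE cKO for 9 of 10, with a median of 0.26 and 0 called. Their list means were 10.50 to 10.66 in bulge WT, 9.52 to 10.47 in bulge cKO, 6.94 to 7.01 in IFE WT and 6.96 to 7.62 in IFE cKO. Without bulge cKO replicates 2 and 3, 0 leukocyte and 0 differentiation markers were called in bulge cKO, with medians of 0.53 and 0.69, and the bulge markers had a median of -0.14. Without IFE cKO replicates 2 and 3, the bulge markers had a median of 0.02 in IFE cKO, with 4 of 10 below 0. The leukocyte median in IFE cKO was then 0.15, against 0.38 on all arrays, and the differentiation median 0.22, against 0.30. Of 5 general keratinocyte markers, 1 was called lower in bulge cKO and 0 in IFE cKO, where 1.85% and 0.175% of all genes were. In WT, 4 of the 11 leukocyte markers were called lower in bulge than in IFE, against 16.6% of all genes. Fibroblast markers (6 genes) and melanocyte markers (4 genes) had 0 calls in the knockout comparisons. The fibroblast list mean was 4.98 to 5.22 in bulge WT and 5.16 to 5.91 in bulge cKO. In IFE it was 4.82 to 5.14 in WT and 5.09 to 5.54 in cKO. Within each cKO group the fibroblast mean was highest on replicates 2 and 3. The proliferation list had 0 calls between genotypes. In IFE its median was -0.24, with 18 of 19 genes below 0, against 54.8% of all genes. Without IFE cKO replicates 2 and 3 that median was -0.07, with 14 of 19 below 0. In bulge the median of this list was 0.09, with 5 of 19 below 0, against 46.2% of all genes. Without bulge cKO replicates 2 and 3 it was 0.02, with 8 of 19 below 0. The part of these cells and states in the members' differences was not tested.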

How the data were processed

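Per the labels' protocols, 25 ng of total RNA from each of 14 samples went through 17 cycles of amplification before labelling for Affymetrix arrays. The authors deposited log2 values for each probe set, computed by RMA per the submitters' processing notes; RMA normalises quantiles between arrays and so can hide a shift shared by most genes. No source used here gives its version. Arrays have no read depth, so their number limits the precision.

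Of 45141 probe sets, 28898 had a single symbol, 551 several and 15692 none; 28689 took the RefSeq symbol through the Entrez identifier and 209 kept the platform's. The probe set with the highest mean stood for each of 17097 genes. Among the 33 measured members, 17 had several probe sets and 16 had 1, and the chosen probe set of 5 (Gar1, Nhp2, Nop53, Nop56, Rrs1) is of a type shared between transcripts. The probe sets of a gene disagreed in sign for 1 to 4 of the 17, depending on the comparison.

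A mean per group was fitted over all 14 arrays with lmFit and eBayes (limma 3.58.1, R 4.3.3; 10 residual degrees of freedom). Tests were two-sided, with Benjamini-Hochberg adjustment over the 17097 genes, a threshold of 0.05 and no fold minimum. The model was tested on simulated data. Same-numbered replicates had deviations correlated between -0.616 and 0.251, so the numbers were not taken to pair samples.

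The members, roles, lists, motifs and tests were chosen with earlier results of these data known, and the printed promoters after the motif search. The rule for named genes gave Nop53, Rrp1b, members called in a knockout comparison, the 6 widest called members in each direction per comparison of compartments, and up to 5 called genes of each further list with the smallest p. Alternatives covered scaling, dim genes, the choice of probe set, the variance model, array weights, the groups fitted, a replicate block, a threshold of 0.1 and leaving out arrays; leaving out replicates 2 and 3 of bulge cKO, of IFE cKO or of both was added after seeing the data. Figures were drawn with matplotlib 3.10.9.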

Additional observations from a re-analysis of the deposited data

Results flagged for a closer look

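In 100 groups of 4 arrays, those of the 33 members and of 17 list means (the members together, their roles and every other list used here) in bulge cKO and IFE cKO, 7 held an array that stood far from the other 3 by Dixon's criterion, which chance alone gives for about 1 in 20 groups. Bop1 read 8.53 on IFE cKO replicate 4, the highest of its group. Nop10 read 10.38 on the same array, again the highest. Nop56 read 8.48 on bulge cKO replicate 4, the lowest of its group. Rrp15 read 6.83 on bulge cKO replicate 1, the lowest of its group. The mean of the Myc network was 8.44 on bulge cKO replicate 4, the highest of its group, and that of the box H/ACA members 8.73 on bulge cKO replicate 1, the lowest. The mean of the keratinocyte markers was 11.59 on IFE cKO replicate 4, the highest of its group.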

How the results depend on the processing

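The members' median was below 0 in all 4 comparisons of groups under each alternative. No difference of a member that the rule names for a comparison changed sign, but other members did. Of the 33, 25 lay below 0 in bulge cKO in the main fit, 20 under cyclic loess and 30 without bulge cKO replicates 2 and 3. In the comparison of WT compartments 21 to 25 members were called lower without single arrays, and 21 of the 25 calls were kept without any of them (Dkc1, Nob1, Polr1a and Wdr12 were lost at least once); in cKO the range was 18 to 24. The median of the members in WT ranged from -0.61 to -0.47, with -0.47 without IFE WT replicate 1. Members lower in bulge cKO ranged from 1 to 3 without single arrays, and were 1 under cyclic loess, with only the groups compared and without bulge cKO replicates 2 and 3, but 5 with array weights. In IFE cKO they were 2 to 3 without single arrays, 8 with array weights and 5 at an adjusted p under 0.1. The largest array weights fell on bulge cKO replicate 3 (3.74) and IFE cKO replicate 3 (2.94), which are among the arrays that stood apart. The next was 1.78, on IFE WT replicate 1. All counts of members lower in a knockout comparison here include Nop53 and Rrp1b, whose knockout values carry no test. With those genes left out, 0 members were called in either compartment under cyclic loess. Likewise 0 were called in bulge cKO without its replicates 2 and 3, and 0 in IFE cKO without its replicates 2 and 3. Array weights also called 3 members in the difference of effects (Bop1, Nolc1 and Rrp1b), where the value of Rrp1b carries no test. Cyclic loess called 1 member, Nop53, higher in cKO bulge than in cKO IFE. Of the further biogenesis genes, those lower in bulge cKO (1) were 0 with median centring, with only the groups compared and without bulge cKO replicates 2 and 3, 2 with the mean of probe sets or the probe set of largest interquartile range, 24 with array weights, 10 at an adjusted p under 0.1, and 0 to 11 without single arrays (11 without bulge cKO replicate 4). Those higher there (1) were 0 with centring, the filter on dim genes, the trended fit, only the groups compared, the replicate block and without bulge cKO replicates 2 and 3, 3 with array weights, and 0 to 2 without single arrays. Those lower in IFE cKO (4) were 2 with the dim filter, the largest interquartile range or only the groups compared, 28 with array weights, 0 with the replicate block, 7 at an adjusted p under 0.1, and 0 to 5 without single arrays. Those higher in the difference of effects (0) were 6 with array weights and 0 to 1 without single arrays. Those higher between WT compartments (3) were 1 with only the groups compared and 1 to 4 without single arrays, and those higher in cKO (2) were 4 under cyclic loess, 1 with centring or only the groups compared, and 0 to 2 without single arrays. Without IFE cKO replicates 2 and 3, 1 member and 0 further genes were lower in IFE cKO, where the members' median was -0.19, 0 further genes were higher in bulge cKO, and 1 was higher in cKO bulge than in cKO IFE. Without replicates 2 and 3 of both cKO groups these values were the same, 1 member and 0 further genes were lower in bulge cKO, and the members' median between cKO compartments was -0.50. The cause of these changes was not tested. With a replicate block the members lower were 2 in bulge cKO, 2 in IFE cKO, 25 between WT and 22 between cKO compartments, and Nop14 in IFE cKO had a limma adjusted p of 0.0774. Median centring moved the share of all calls that were higher from 52.6% to 42.5% in WT compartments, from 54.7% to 39.6% in cKO compartments and from 51.7% to 41.5% in bulge cKO, where the members lower were 25, 24 and 2.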

Other observations

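A few further biogenesis genes ran against the rest between compartments, and are named here after their values were seen. Pdcd11, a factor needed for both subunits, was higher in bulge by 0.59 in WT (SE 0.15, limma adjusted p = 0.00785) and by 0.45 in cKO (SE 0.13, limma adjusted p = 0.0187). Nvl, an ATPase of the large-subunit pathway, was higher by 0.30 in WT (limma adjusted p = 0.0175) and by 0.22 in cKO (limma adjusted p = 0.0381). Exosc2, a subunit of the RNA exosome, was higher by 0.29 in WT (limma adjusted p = 0.0192). At the other end, Utp4, a small-subunit processome gene, differed by -1.59 in WT (SE 0.28, limma adjusted p = 0.000897) and by -1.12 in cKO (SE 0.24, limma adjusted p = 0.00473), and Heatr1, of the same processome, by -1.19 in WT and -0.64 in cKO. The ETS motif CCGGAAGT was found in 29 of 97 further biogenesis genes with a promoter window (29.9%) and the E-box in 18 (18.56%), by the same search as for the members.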
